A study of Mus musculus with 15 samples.

Results

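The tumour necrosis factor (TNF) superfamily was examined in mouse liver. Its members were taken from the gene table by symbol: every gene named in the Tnfsf (ligand) or Tnfrsf (receptor) series, together with Tnf, Lta, Ltb, Fas, Fasl, Cd40, Cd40lg, Cd70, Ltbr and Edar. Cd27 and Ngfr were left out. This gave 42 of the 57132 gene identifiers in the table, made up of 17 ligands, 24 receptors and Tnfsf13os, an antisense RNA whose symbol matched the pattern. Of these, 34 had at least 10 counts in 4 or more libraries, and the same 34 passed the expression filter and were tested: 10 ligands, 23 receptors and Tnfsf13os. The other 8 members (Cd40lg, Cd70, Lta, Tnfrsf17, Tnfsf4, Tnfsf11, Tnfsf15 and Tnfsf18) had between 5 and 62 counts summed over all libraries.

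RNA came from whole liver of male C57BL/6J mice, an inbred laboratory strain, aged 8 weeks at the start. SR9009 mice were fed CDA-HFD, a high-fat diet without choline and with amino acids in place of protein, for 18 weeks and were injected intraperitoneally every day for the last 6 of them with SR9009 at 100 mg/kg per day. Vehicle mice ate the same diet and received the solvent (Kolliphor ELP, 15% in saline) on the same schedule. Chow mice ate standard chow. Whether Chow mice received injections is not stated in the labels, and in comparisons with Chow the diet and the injections cannot be told apart. CDA-HFD is used to produce steatohepatitis with scarring in mice, and SR9009 is a synthetic agonist of the REV-ERB nuclear receptors, which repress transcription. The libraries numbered 5 for SR9009, 5 for Vehicle and 4 for Chow.

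TNF superfamily ligands are mostly trimeric proteins made on the cell membrane, from which several are cut to a soluble form. Some of their receptors carry a death domain, through which they can start caspase activation. Many recruit TRAF adaptors, directly or through other adaptors, and so activate NF-kB and MAP kinases. A receptor with a death domain can do both. Some receptors lack a signalling tail and bind ligand as decoys. In liver, TNF, Fas ligand and TRAIL are known for killing hepatocytes under stress, TWEAK for driving the growth of progenitor and bile duct cells, and the lymphotoxin, BAFF and CD40 branches for organising lymphocytes.

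Total counts ran from 29950509 to 45542335 per library. Levels are given as CPM, counts per 1000000 of a library total scaled by the trimmed mean of M-values (TMM), and 3 counts corresponded to between 0.0607 and 0.124 CPM. The TMM factors were 0.753 to 0.824 in Chow libraries and 1.02 to 1.15 in diet-fed ones. The defining hepatocyte genes were abundant in every library, with summed levels of 58492 to 74922 CPM in SR9009, 71715 to 79822 CPM in Vehicle and 99656 to 136702 CPM in Chow livers. Libraries also differed in how many of 1752 chemosensory receptor genes (olfactory, vomeronasal and trace amine) had a count: 150 to 231 genes in 3 SR9009 and 3 Vehicle libraries, against 45 to 105 in the other 8. Calls against Chow that were lost in fits that take account of this difference are named after the branches.

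Per length of exon, the receptors for TNF and lymphotoxin were the most abundant members of the family in all groups. Tnfrsf1a, which encodes the death-domain receptor TNFR1, averaged 48.3 CPM per kilobase in SR9009, 48.5 in Vehicle and 35.2 in Chow livers. Ltbr, the lymphotoxin beta receptor, averaged 45.8, 40.6 and 42.0 CPM per kilobase in SR9009, Vehicle and Chow livers. These are the highest values of the family in each group. In Vehicle livers the lowest Tnfrsf1a library, at 45.1 CPM per kilobase, lay above the highest Ltbr library, at 44.1, while in SR9009 livers the ranges overlapped. In Chow livers the order was reversed, the lowest Ltbr library, at 38.8, lying above the highest Tnfrsf1a library, at 38.1.

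Tnfrsf12a, which encodes the TWEAK receptor Fn14, ranked 3rd in diet-fed livers, with 16.8 CPM per kilobase in SR9009 and 19.8 in Vehicle livers, and 6th in Chow livers with 4.21. Tnfrsf1b, encoding TNFR2, reached 16.2 CPM per kilobase in SR9009 and 17.9 in Vehicle livers, within the spread of Tnfrsf12a, and 8.18 in Chow livers. Fas, the death receptor of Fas ligand, stood at 10.5, 10.4 and 10.8 CPM per kilobase in SR9009, Vehicle and Chow livers. The ligands were lower than these receptors. Tnfsf12 (TWEAK) was the highest ligand in each group, with 5.63 CPM per kilobase in SR9009, 5.28 in Vehicle and 2.03 in Chow livers. Tnf ranked 12th among the 33 coding members in SR9009 and Vehicle livers, with 1.57 and 1.58 CPM per kilobase, and 22nd in Chow livers with 0.120. At the bottom of the order in diet-fed livers were Tnfrsf8 (CD30), Edar, Tnfsf8, Tnfsf9 and Tnfrsf13c, with 0.0642 to 0.218 CPM per kilobase in SR9009 and 0.0696 to 0.177 in Vehicle livers.

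**Figure D1:**
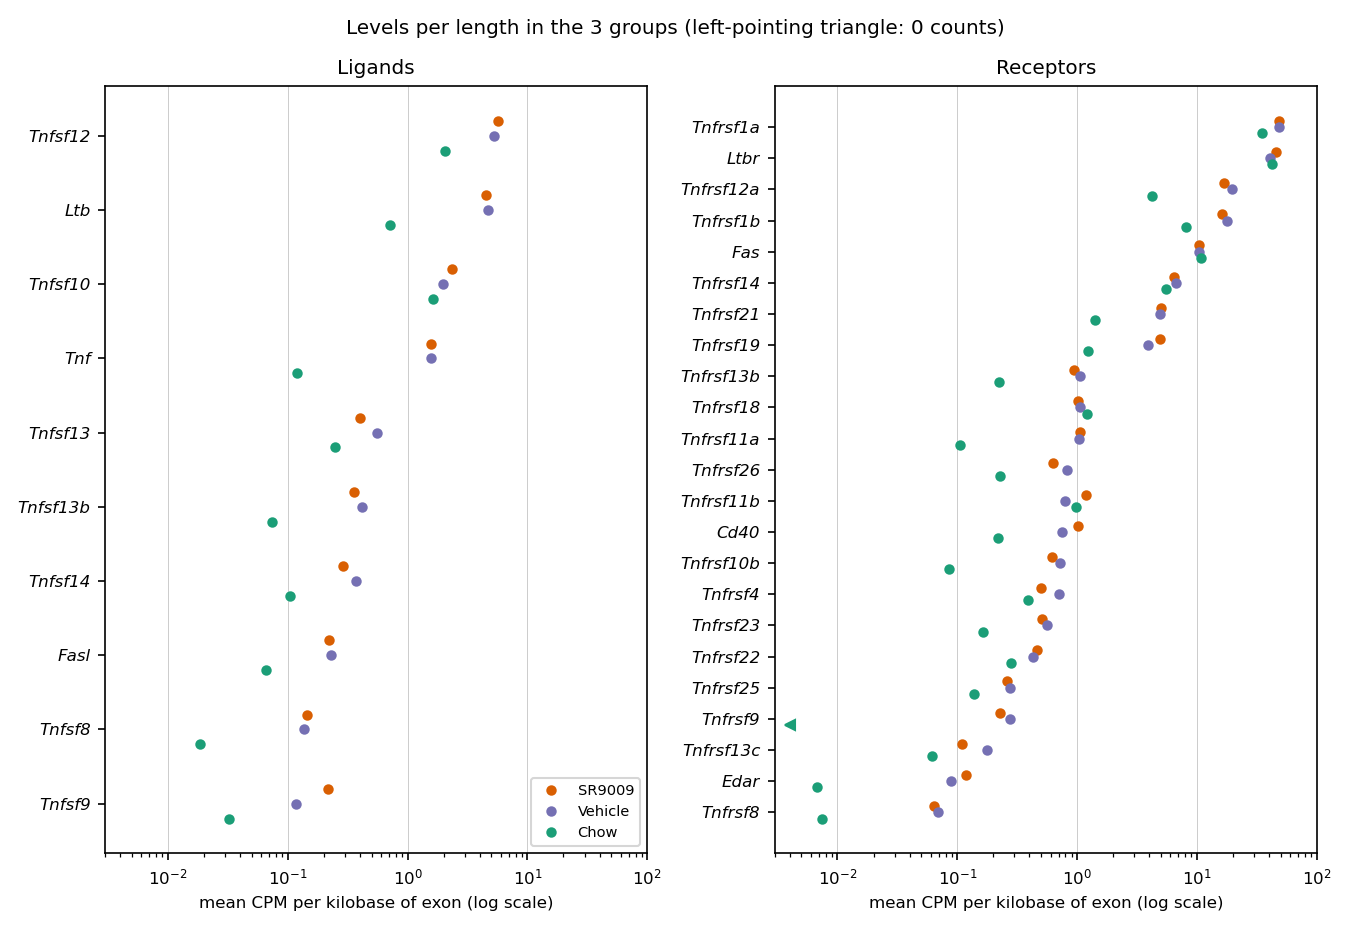
Mean level of each tested ligand and receptor in CPM per kilobase of exon (log axis) in SR9009, Vehicle and Chow livers, ordered by the Vehicle level. Receptors span 48.5 (Tnfrsf1a) to 0.0696 (Tnfrsf8) in Vehicle livers, and the Chow point lies left of both diet-fed points for most members; Tnfrsf9 had 0 counts in Chow livers.

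Vehicle and Chow livers were compared to ask how the diet with vehicle injections changed the family. Of the 34 tested members, 27 were higher in Vehicle livers (79.4%) and 0 were lower, at an adjusted p under 0.05 over all 18181 tested genes (edgeR quasi-likelihood test). Over all tested genes, 29.8% were called higher and 25.4% lower. By kind, 8 of 10 ligands and 18 of 23 receptors rose, and Tnfsf13os rose as well. The median log2 fold change of the members was 1.77, beside 0.02 over all tested genes, and 23 members rose at least 2-fold, beside 20.7% of all tested genes. In 22 members every Vehicle library lay above every Chow library, which held for 24.7% of all tested genes.

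For 9 tested members no Chow library reached 10 counts, so they entered the test only through diet-fed libraries. These were Tnf, Fasl, Tnfsf8, Tnfsf9, Tnfsf14, Tnfrsf8, Tnfrsf9, Tnfrsf13c and Edar, and all but Tnfsf9 were called higher (8 of 9). Had these members been as low in diet-fed livers, they would not have been tested, so their calls and p-values are given as description. The median log2 fold change given above includes these 9, and the counts by kind, at 2-fold and without overlap include some of them. All 8 that were called are among the 23 members that rose at least 2-fold. By kind, these 9 were 5 of the 10 tested ligands, with 4 called, and 4 of the 23 tested receptors, with 4 called. Among the other 25 members, 19 were called higher in Vehicle livers (76%). The matching share, over all genes with a Chow library of 10 or more counts, was not computed. Macrophage markers moved with these rises: 11 of 12 were higher in Vehicle than in Chow livers, with summed levels of 1774 to 2697 CPM against 130.0 to 327 CPM and no marker at 0. T and NK cell markers also did, 10 of 12 being higher, with sums of 17.4 to 22.1 CPM against 5.78 to 10.6 CPM. Of 8 tested B and plasma cell markers 1 was higher (Cd22), with sums of 16.9 to 34.4 CPM against 10.00 to 28.5 CPM. The part of these cells in the rises was not tested, and in whole liver more cells of a type and more RNA per cell cannot be told apart.

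**Figure D2:**
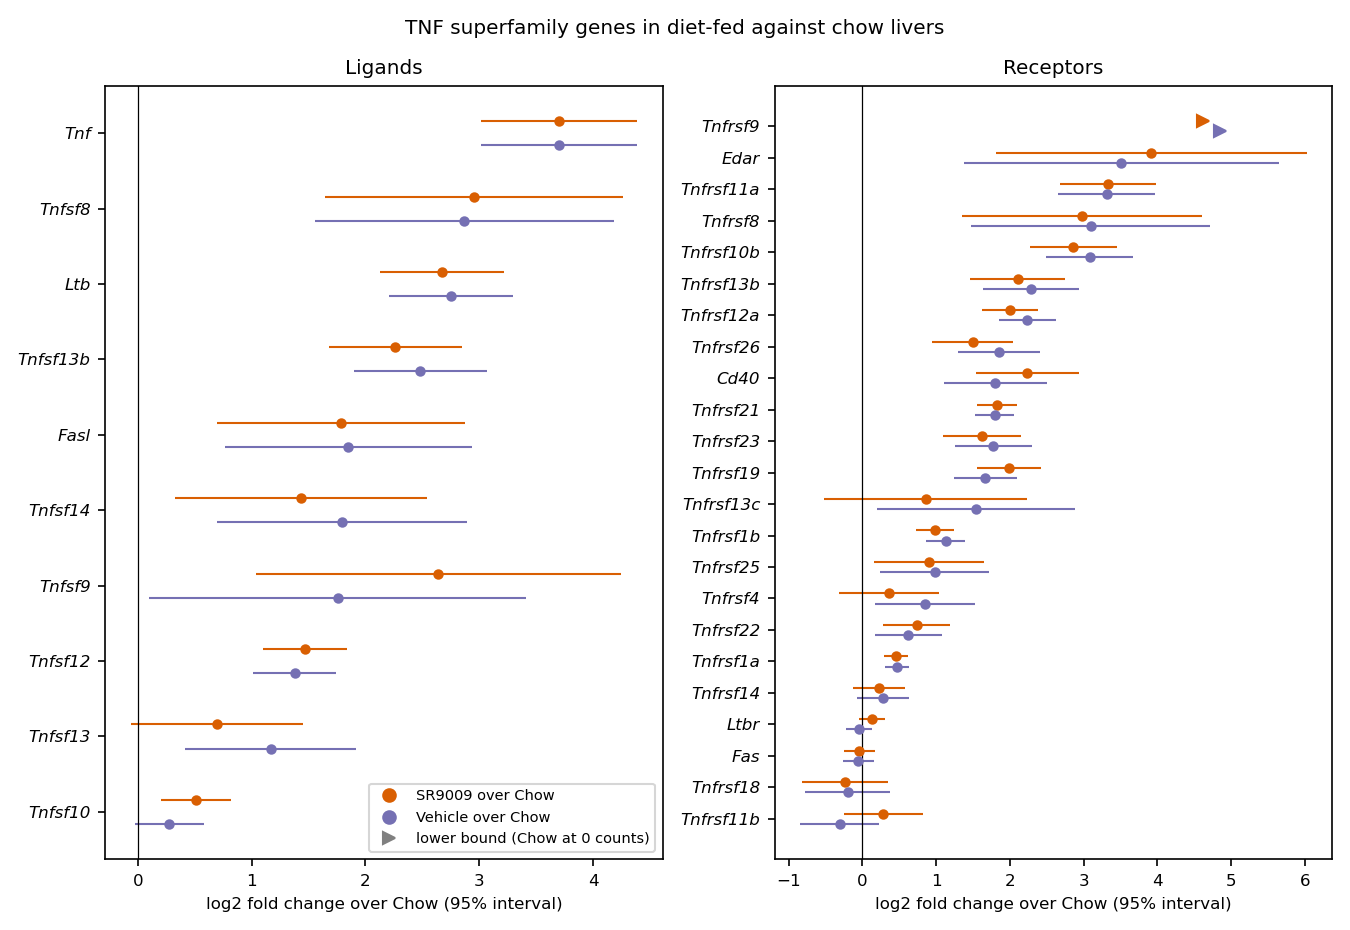
Fitted log2 fold change over Chow (x axis, with 95% interval) of the tested ligands and receptors in SR9009 and in Vehicle livers; triangles mark lower bounds for Tnfrsf9, which had 0 counts in Chow. Most points lie right of 0 in both groups, Tnf at 3.70 in each, while the intervals of Fas, Ltbr, Tnfrsf14, Tnfrsf18 and Tnfrsf11b span 0 in both; Edar and Tnfrsf8 rest on 3 Chow counts each.

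In the TNF branch all 3 members rose in Vehicle livers. Tnf (ENSMUSG00000024401.15), the inflammatory cytokine that gives the family its name, had 2.42, 3.11, 3.12, 1.92 and 2.32 CPM in SR9009 livers, 2.87, 1.98, 2.79, 1.78 and 3.50 CPM in Vehicle livers and 0.105, 0.229, 0.166 and 0.289 CPM in Chow livers. No diet-fed library came near the Chow range, and SR9009 and Vehicle libraries covered the same range. The rise in Vehicle over Chow livers was 13.0-fold (95% interval 8.11 to 20.9; log2 fold change 3.70 ± 0.32 SE; adjusted p = 1.62e-07). Tnf is among the members tested only through diet-fed libraries, with 3, 8, 5 and 7 counts in the Chow libraries.

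Tnfrsf1b, the receptor that binds TRAF adaptors without a death domain, had 61.2, 71.4, 50.5, 64.8 and 60.9 CPM in SR9009 livers, 76.2, 53.9, 71.1, 74.1 and 65.8 CPM in Vehicle livers and 28.1, 38.1, 29.1 and 29.5 CPM in Chow livers. Chow replicate 2 stood above the other Chow libraries but below every diet-fed one, and the rise in Vehicle livers was 2.18-fold (log2 1.13 ± 0.12 SE; adjusted p = 1.44e-06). Tnfrsf1a had 119, 132, 121, 124 and 130.4 CPM in SR9009, 139, 117, 122, 123 and 129 CPM in Vehicle and 98.4, 84.8, 83.0 and 98.7 CPM in Chow livers. Its groups did not overlap either, but the rise was the smallest called in the family, 1.38-fold (log2 0.46 ± 0.08 SE; adjusted p = 9.08e-05).

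**Figure D3:**
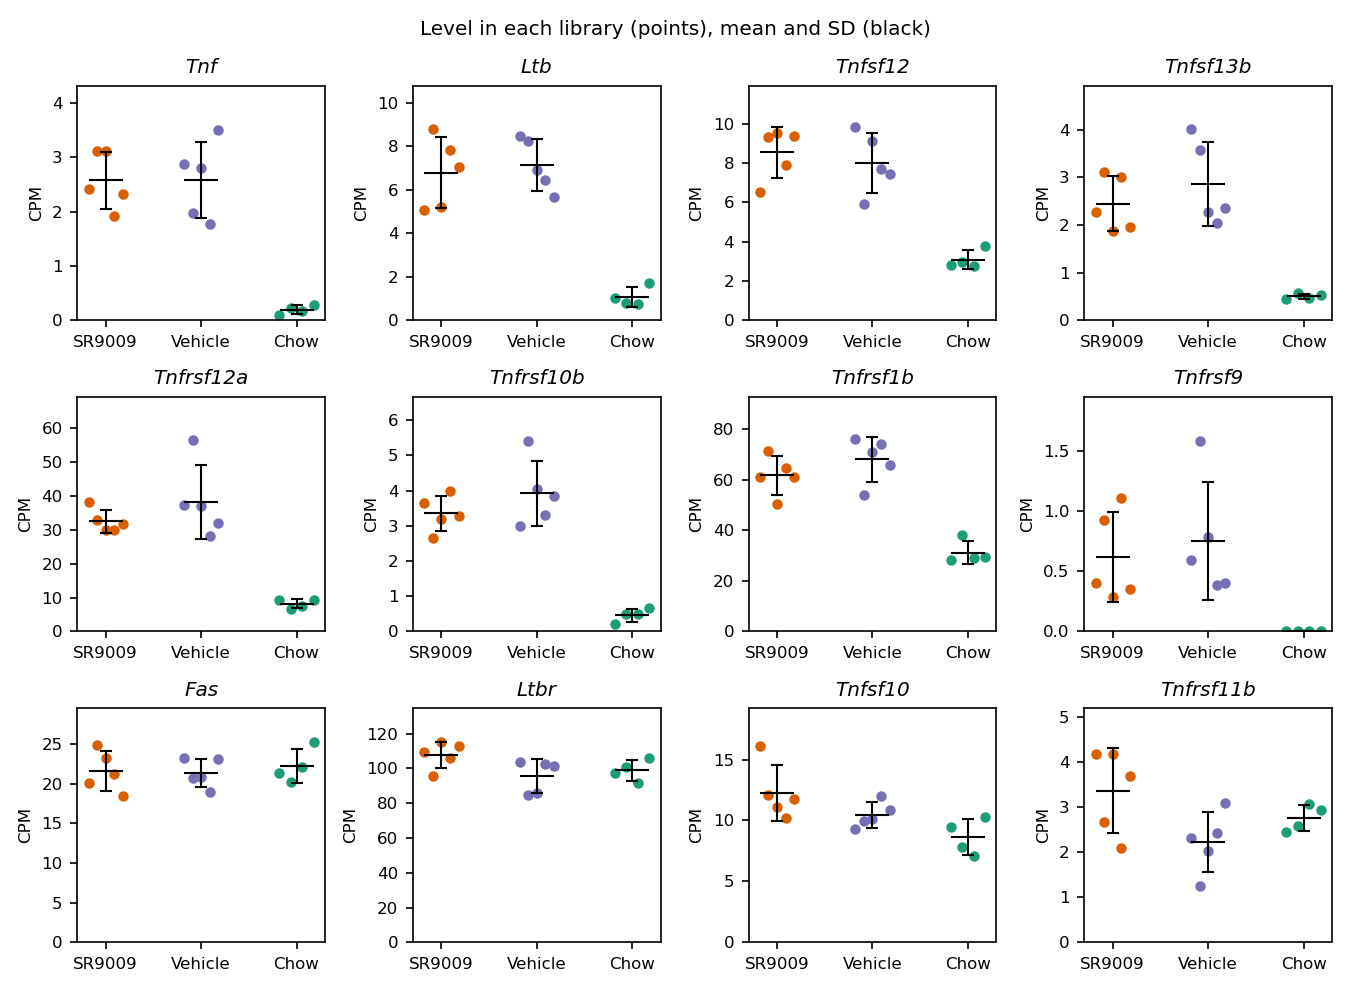
CPM of 12 members in each library (points) of SR9009, Vehicle and Chow livers, with the mean and SD in black; every y axis starts at 0. In the upper 8 panels all diet-fed libraries lie above all Chow libraries, whereas Fas, Ltbr, Tnfsf10 and Tnfrsf11b overlap between groups.

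Of the lymphotoxin and LIGHT branch, the tested ligands rose in Vehicle livers while the receptors were not called. Of these ligands, Tnfsf14 was tested only through diet-fed libraries. Ltb (ENSMUSG00000024399.6), which encodes the membrane partner of lymphotoxin alpha, had 5.07, 8.77, 5.20, 7.81 and 7.06 CPM in SR9009, 8.49, 8.24, 6.91, 6.44 and 5.68 CPM in Vehicle and 1.02, 0.802, 0.761 and 1.73 CPM in Chow livers. The lowest diet-fed library was well above the highest Chow library. Vehicle livers were 6.72-fold higher than Chow livers (95% interval 4.61 to 9.81; adjusted p = 3.22e-07). Tnfsf14, the ligand LIGHT, averaged 0.531 ± 0.0935 CPM in SR9009 and 0.683 ± 0.247 CPM in Vehicle livers (SD, n = 5 each) and 0.194 ± 0.132 CPM in Chow livers (SD, n = 4), a 3.47-fold rise in Vehicle livers (adjusted p = 0.00781). Lta, the third ligand of the branch, had 25, 33 and 4 counts in all over the SR9009, Vehicle and Chow libraries and was not tested.

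Ltbr, their shared receptor, had 109, 95.7, 115, 106 and 113 CPM in SR9009 livers, 104, 84.5, 85.8, 102 and 101 CPM in Vehicle livers and 97.5, 101, 91.4 and 106 CPM in Chow livers. The 3 groups overlapped, and the log2 fold change in Vehicle over Chow livers was -0.05 ± 0.08 SE (adjusted p = 0.633). Tnfrsf14, the LIGHT receptor HVEM, averaged 9.67 ± 1.43 CPM in Vehicle (n = 5) and 7.99 ± 1.92 CPM in Chow livers (SD, n = 4) and was not called (log2 0.28 ± 0.16 SE; adjusted p = 0.164). Without Chow replicate 4, which had 10.8 CPM, it was called (adjusted p = 0.0224).

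The promoters of Ltb and of the CD30 and CD137 receptor genes are shown as examples that hold the NF-kB consensus. This is the DNA motif of the transcription factor family that TNF receptors activate. Tnfrsf25 also holds a match, which began 28 bases before its second start, and is not printed. RefSeq promoter sequences (assembly GRCm38.p6) matched 26 of the 34 reported members, with 30 starts, each covering 250 bases before to 50 bases after the start. The consensus was found on either strand at 4 of these 30 starts (13.3%), belonging to Ltb, Tnfrsf8, Tnfrsf9 and Tnfrsf25, and at 8.46% of all 32851 promoters in the reference. The 250 bases before the start are printed 5′ to 3′ on the strand of the gene, with the consensus in capitals; in Tnfrsf8 and Tnfrsf9 the capitals hold 2 overlapping matches.
Ltb, chr17:35194257-35194506, plus strand: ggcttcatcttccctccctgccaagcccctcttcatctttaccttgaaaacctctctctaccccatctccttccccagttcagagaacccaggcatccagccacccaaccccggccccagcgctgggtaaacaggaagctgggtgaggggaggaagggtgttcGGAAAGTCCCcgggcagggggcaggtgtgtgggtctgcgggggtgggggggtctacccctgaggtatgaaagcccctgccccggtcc
Tnfrsf9, second of its starts, chr4:150927749-150927998, plus strand: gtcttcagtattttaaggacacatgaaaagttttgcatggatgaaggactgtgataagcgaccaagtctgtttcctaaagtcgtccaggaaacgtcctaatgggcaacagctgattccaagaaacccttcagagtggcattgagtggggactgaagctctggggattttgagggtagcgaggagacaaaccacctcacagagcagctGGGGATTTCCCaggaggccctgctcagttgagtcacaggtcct
Tnfrsf8, chr4:145315165-145315414, minus strand: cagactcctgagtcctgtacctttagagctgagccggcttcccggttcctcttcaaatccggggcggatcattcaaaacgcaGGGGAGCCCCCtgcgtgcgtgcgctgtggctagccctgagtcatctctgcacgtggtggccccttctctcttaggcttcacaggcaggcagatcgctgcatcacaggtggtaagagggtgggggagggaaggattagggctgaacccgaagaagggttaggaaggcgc
The match began 87 bases before the start in Ltb, 43 bases in Tnfrsf9 and 168 bases in Tnfrsf8. The REV-ERB and ROR response element, an AGGTCA core with a flank rich in A and T, searched on both strands, was in 0 of the 30 windows and in 0.219% of all promoters. A match of letters is a description, and its absence says only that these letters are not in the window, as for Tnf, whose window held neither motif.

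Of the death-signalling branch, 4 of 6 members rose in Vehicle livers (Fasl, Tnfrsf10b, Tnfrsf21 and Tnfrsf25), whereas Fas and Tnfsf10 were not called. Over all tested genes 29.8% were called higher, and Fasl was tested only through diet-fed libraries. Tnfrsf10b, the mouse death receptor of TRAIL, had 3.65, 2.67, 3.20, 3.99 and 3.29 CPM in SR9009, 2.99, 5.41, 4.06, 3.30 and 3.84 CPM in Vehicle and 0.211, 0.487, 0.497 and 0.660 CPM in Chow livers. Diet-fed and Chow libraries were far apart, and the rise in Vehicle livers was 8.46-fold (95% interval 5.63 to 12.7; adjusted p = 2.23e-07). Its ligand TRAIL, encoded by Tnfsf10, had 16.1, 12.1, 11.1, 10.2 and 11.8 CPM in SR9009, 9.26, 9.98, 10.1, 12.0 and 10.9 CPM in Vehicle and 9.44, 7.79, 7.05 and 10.3 CPM in Chow livers. Vehicle and Chow libraries overlapped, and the log2 fold change of 0.28 ± 0.14 SE was not called (adjusted p = 0.116).

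Fas had 20.1, 24.8, 23.2, 21.1 and 18.5 CPM in SR9009 livers, 23.2, 20.7, 20.8, 19.0 and 23.1 CPM in Vehicle livers and 21.3, 20.2, 22.0 and 25.3 CPM in Chow livers. The groups lay on one another: the ratio of Vehicle to Chow livers was 0.962 with a 95% interval of 0.833 to 1.11 (adjusted p = 0.656). Fasl, its ligand on cytotoxic lymphocytes, had 0.636, 0.299, 0.572, 0.277 and 0.355 CPM in SR9009, 0.388, 0.400, 0.393, 0.648 and 0.406 CPM in Vehicle and 0.0702, 0.115, 0.0331 and 0.289 CPM in Chow livers. All Vehicle libraries exceeded the Chow libraries, a 3.61-fold rise (95% interval 1.70 to 7.64; adjusted p = 0.00577), while the lowest SR9009 library lay within the Chow range. Without Chow replicate 4, the highest Chow library, the rise was 5.88-fold. Tnfrsf21, the death-domain receptor DR6, rose 3.46-fold in Vehicle livers (20.3 ± 3.04 CPM in Vehicle, n = 5, against 5.85 ± 0.721 CPM in Chow, n = 4, SD; adjusted p = 1.92e-08), the smallest adjusted p of the family. Tnfrsf25, encoding DR3, rose 1.97-fold (adjusted p = 0.0254), with libraries that overlapped; the call was lost without Vehicle replicate 1, Vehicle replicate 4, Chow replicate 1 or Chow replicate 4, with adjusted p up to 0.0689.

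All 3 receptors of the mouse decoy cluster rose in Vehicle livers. Tnfrsf23 and Tnfrsf22, which bind TRAIL without signalling death in mice, rose 3.42-fold and 1.54-fold (adjusted p = 1.74e-05 and 0.022), and Tnfrsf26 rose 3.61-fold (adjusted p = 1.95e-05). The Tnfrsf22 call was lost without Vehicle replicate 1, Chow replicate 2 or Chow replicate 3, with adjusted p up to 0.066. Since these genes are similar in sequence, the split of reads among them is uncertain.

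Both members of the TWEAK branch rose. Tnfrsf12a, the receptor Fn14 of injured epithelium, had 38.1, 33.0, 30.0, 29.8 and 31.8 CPM in SR9009 livers, 37.3, 56.5, 37.0, 28.1 and 31.9 CPM in Vehicle livers and 9.16, 6.67, 7.41 and 9.32 CPM in Chow livers. Vehicle replicate 2 was the highest library, and the diet-fed and Chow ranges stayed apart without it. The rise in Vehicle livers was 4.70-fold (95% interval 3.59 to 6.15; adjusted p = 1.17e-07). Tnfsf12, which encodes TWEAK, had 6.53, 9.34, 9.54, 7.87 and 9.38 CPM in SR9009, 9.83, 5.91, 9.09, 7.71 and 7.43 CPM in Vehicle and 2.81, 2.98, 2.75 and 3.79 CPM in Chow livers. Again no diet-fed library reached the Chow range, and Vehicle livers were 2.60-fold higher (adjusted p = 6.36e-06). Cholangiocyte markers moved the same way, 8 of 8 being higher in Vehicle livers, with sums of 419 to 995 CPM against 51.4 to 87.2 CPM in Chow livers; their part in the rise was not tested.

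In the BAFF and APRIL branch, 4 of 4 tested members rose in Vehicle livers, beside 29.8% of all tested genes. Among them, Tnfrsf13c was tested only through diet-fed libraries. Tnfsf13b, encoding the B cell survival factor BAFF, had 2.27, 3.11, 1.87, 3.01 and 1.97 CPM in SR9009, 4.01, 3.58, 2.28, 2.04 and 2.35 CPM in Vehicle and 0.456, 0.573, 0.463 and 0.536 CPM in Chow livers. Chow libraries were low and close together, and the rise in Vehicle livers was 5.58-fold (adjusted p = 1.85e-06). Its receptor TACI, encoded by Tnfrsf13b, rose 4.88-fold (3.01 ± 0.395 CPM in Vehicle, n = 5, against 0.630 ± 0.336 CPM in Chow, n = 4, SD; adjusted p = 1.11e-05). Tnfsf13, encoding APRIL, rose 2.24-fold (adjusted p = 0.0108). It lies beside Tnfsf12 and Tnfsf13os in overlapping transcripts, and no strand setting of the counting is given in the sources used here, so reads of these genes cannot be fully told apart. Tnfrsf13c, the BAFF receptor of mature B cells, only just passed (log2 1.54 ± 0.63 SE; adjusted p = 0.05 after rounding), its libraries overlapped, and it was called in 3 of 14 fits that each left out 1 library, with adjusted p up to 0.129. Tnfrsf17, encoding the plasma cell receptor BCMA, had 11, 9 and 4 counts in all over the SR9009, Vehicle and Chow libraries and was not tested.

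Among the costimulatory members of lymphocytes and antigen-presenting cells, 5 of 7 tested rose in Vehicle livers, beside 29.8% of all tested genes. Of these 7, Tnfrsf8, Tnfrsf9, Tnfsf8 and Tnfsf9 were tested only through diet-fed libraries, and 3 of these 4 were called. Tnfrsf9 was the only tested member with 0 counts in all 4 Chow libraries. Tnfrsf9 (ENSMUSG00000028965.14), encoding the T cell receptor CD137, had 0.403, 0.922, 0.286, 1.11 and 0.355 CPM in SR9009 livers, 0.593, 1.58, 0.787, 0.385 and 0.406 CPM in Vehicle livers and 0 counts in Chow livers. Against a floor of 3 counts over the Chow group, it was at least 28.8-fold higher in Vehicle livers, with 169 counts, and at least 24.5-fold higher in SR9009 livers, with 134 counts. The adjusted p was 8.74e-05 for Vehicle over Chow livers. Tnfrsf8, encoding CD30, had 48, 56 and 3 counts in all over the SR9009, Vehicle and Chow libraries. The ratio of Vehicle to Chow was 9.53 (95% counting interval 3.10 to 47.6; adjusted p = 0.00262). Its ligand gene Tnfsf8 had 0.254, 0.996, 0.312, 0.597 and 0.616 CPM in SR9009, 0.707, 0.518, 0.518, 0.486 and 0.384 CPM in Vehicle and 0.140, 0, 0.0993 and 0.0412 CPM in Chow livers. Every diet-fed library exceeded every Chow library, a 7.31-fold rise in Vehicle livers (95% interval 2.95 to 18.1; adjusted p = 0.000911).

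Cd40, which activates antigen-presenting cells, had 3.10, 4.68, 2.21, 3.84 and 3.41 CPM in SR9009, 3.60, 2.47, 1.84, 2.00 and 2.86 CPM in Vehicle and 0.877, 0.601, 0.331 and 1.15 CPM in Chow livers. Groups on the diet and on chow did not overlap, and the rise in Vehicle livers was 3.49-fold (adjusted p = 0.000216). Tnfrsf4, encoding the T cell receptor OX40, had 0.382, 0.573, 0.884, 0.896 and 0.687 CPM in SR9009, 0.776, 1.06, 1.22, 1.01 and 0.747 CPM in Vehicle and 0.632, 0.659, 0.298 and 0.536 CPM in Chow livers. Its rise of 1.81-fold in Vehicle livers (adjusted p = 0.0327) depended on single libraries, since the call was lost without Vehicle replicate 2, 3 or 4 or Chow replicate 3 or 4, with adjusted p up to 0.103. Tnfsf9, the CD137 ligand, averaged 0.150 ± 0.0838 CPM in Vehicle (n = 5) and 0.0419 ± 0.0626 CPM in Chow livers (SD, n = 4) and was not called (log2 1.76 ± 0.78 SE; adjusted p = 0.068); without Vehicle replicate 1 or Chow replicate 3 it was called, with adjusted p down to 0.00882. Tnfrsf18, encoding the regulatory T cell receptor GITR, averaged 1.60 ± 0.55 CPM in Vehicle and 1.84 ± 0.167 CPM in Chow livers (log2 -0.20 ± 0.27 SE; adjusted p = 0.555).

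Of the RANK branch, known from bone remodelling, the receptor RANK rose and its soluble decoy was not called. Tnfrsf11a, encoding RANK, had 6.89, 7.72, 4.60, 7.75 and 4.50 CPM in SR9009, 5.98, 7.25, 5.76, 6.52 and 5.51 CPM in Vehicle and 0.246, 0.515, 0.662 and 1.11 CPM in Chow livers. Diet-fed libraries were all above Chow, and the rise in Vehicle livers was 9.93-fold (95% interval 6.31 to 15.6; adjusted p = 3.12e-07). Tnfrsf11b, encoding osteoprotegerin, the soluble decoy that keeps RANK ligand from RANK, had 4.18, 2.67, 4.18, 2.09 and 3.70 CPM in SR9009, 2.33, 1.25, 2.03, 2.43 and 3.10 CPM in Vehicle and 2.46, 2.58, 3.08 and 2.93 CPM in Chow livers. All 3 groups overlapped, and Vehicle livers did not pass the test (log2 -0.31 ± 0.25 SE; adjusted p = 0.321). RANK ligand itself, Tnfsf11, had 15, 12 and 1 counts in all over the SR9009, Vehicle and Chow libraries.

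Outside these branches, Tnfrsf19, the receptor TROY, had 25.1, 26.9, 17.7, 24.2 and 22.6 CPM in SR9009, 18.5, 16.2, 24.9, 19.4 and 14.1 CPM in Vehicle and 6.39, 7.36, 3.61 and 6.10 CPM in Chow livers. Diet-fed and Chow libraries did not overlap (3.18-fold in Vehicle livers; adjusted p = 5.05e-06). Edar, the ectodysplasin receptor of skin appendages, had 92, 75 and 3 counts in all over the SR9009, Vehicle and Chow libraries. The ratio of Vehicle to Chow was 12.8 (95% counting interval 4.20 to 63.3; adjusted p = 0.0073), and Vehicle replicate 2, at 0.0471 CPM, lay within the Chow range of 0 to 0.0702 CPM. Without Chow replicate 1 the fitted ratio was 23.1 in place of 11.4.

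The calls against Chow depend on how libraries are scaled. With raw library totals in place of TMM factors, an alternative added after seeing the data, the median log2 fold change of all tested genes in Vehicle over Chow was 0.50 in place of 0.02, and 57.1% of all tested genes were called higher and 7.58% lower. On that scale 32 of 34 members were called higher, Fas (log2 0.42; adjusted p = 0.00299) and Ltbr (log2 0.43; adjusted p = 0.000126) among them, so that their levels were like those in Chow only relative to the typical gene.

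Some calls against Chow were also lost in fits that take account of the number of chemosensory receptor genes with a count. With a term for this class of library, Tnfrsf4, Tnfrsf13c, Tnfrsf22 and Tnfrsf25 were not called in Vehicle livers (adjusted p = 0.116, 0.113, 0.102 and 0.0598), and Tnfrsf25 and Tnfsf14 were not called in SR9009 livers (adjusted p = 0.0947 and 0.0874). With only the libraries of few such genes, an alternative added after seeing the data that leaves 2 SR9009, 2 Vehicle and 4 Chow libraries, these 4 members (adjusted p from 0.0592 to 0.314), Tnfsf14 (0.177) and Tnfsf13os (0.0698) were not called in Vehicle livers. In SR9009 livers Edar (0.0937), Tnfsf8 (0.0633), Tnfrsf22 (0.106), Tnfrsf25 (0.291) and Tnfsf14 (0.14) were not called on these libraries. Tnfrsf8 did not pass the expression filter on them, so its calls in Vehicle and in SR9009 livers were both lost. The ratio of SR9009 to Chow livers was then 4.60 for Edar, in place of 15.1, and 3.98 for Tnfsf8, in place of 7.76.

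SR9009 and Vehicle livers were compared to ask what the REV-ERB agonist changed on the same diet. Of the 34 members, 0 were called higher and 0 lower, where 0.165% of all tested genes were called higher and 0.077% lower (edgeR quasi-likelihood test). DESeq2 also called 0 members. At an unadjusted p under 0.05 there were 2 members (5.88%), both higher in SR9009 livers, beside 7.28% of all tested genes in either direction and 3.91% higher. No member had libraries that did not overlap between the groups, beside 0.891% of tested genes lying wholly above and 0.979% wholly below. The log2 fold changes ran from -0.68 to 0.88 with a median of -0.05, and 14 were positive and 20 negative.

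The 2 members were Tnfrsf11b and Ltbr. Tnfrsf11b averaged 3.36 ± 0.943 CPM in SR9009 and 2.23 ± 0.672 CPM in Vehicle livers (SD, n = 5 each), a log2 difference of 0.59 ± 0.24 SE (unadjusted p = 0.0232; adjusted p = 0.547, edgeR). Ltbr averaged 108 ± 7.55 CPM in SR9009 and 95.5 ± 9.56 CPM in Vehicle livers (SD, n = 5 each), a log2 difference of 0.17 ± 0.08 SE (unadjusted p = 0.0412; adjusted p = 0.646, edgeR). Tnfrsf19 (log2 0.32 ± 0.17 SE), Tnfrsf4 (log2 -0.49 ± 0.29 SE) and Tnfsf10 (log2 0.23 ± 0.13 SE) had the next smallest p-values, with adjusted p from 0.767 to 0.795. Libraries of both groups overlapped for all 5 of these members.

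The 95% interval of the SR9009 to Vehicle ratio lay within 1.25-fold either way for 3 members, the receptors Fas (0.882 to 1.16), Tnfrsf1a (0.896 to 1.11) and Tnfrsf21 (0.872 to 1.20). It lay within 1.5-fold for 14 members and within 2-fold for 23. Tnf had a ratio of 0.996 with an interval of 0.713 to 1.39, Tnfrsf12a 0.852 with 0.677 to 1.07, Tnfrsf10b 0.858 with 0.628 to 1.17, and Ltb 0.949 with 0.702 to 1.28. For the other members a difference beyond 2-fold lay inside the interval, as for Edar (0.524 to 3.35), Tnfsf9 (0.816 to 4.17) and Tnfrsf13c (0.288 to 1.35). The count of calls was 0 within the libraries with few receptor genes, where 5 genes in all were called higher and 1 lower. It was also 0 within those with many, where 15 genes were called higher and 8 lower. With so few calls over all genes, these counts say little about the members.

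**Figure D4:**
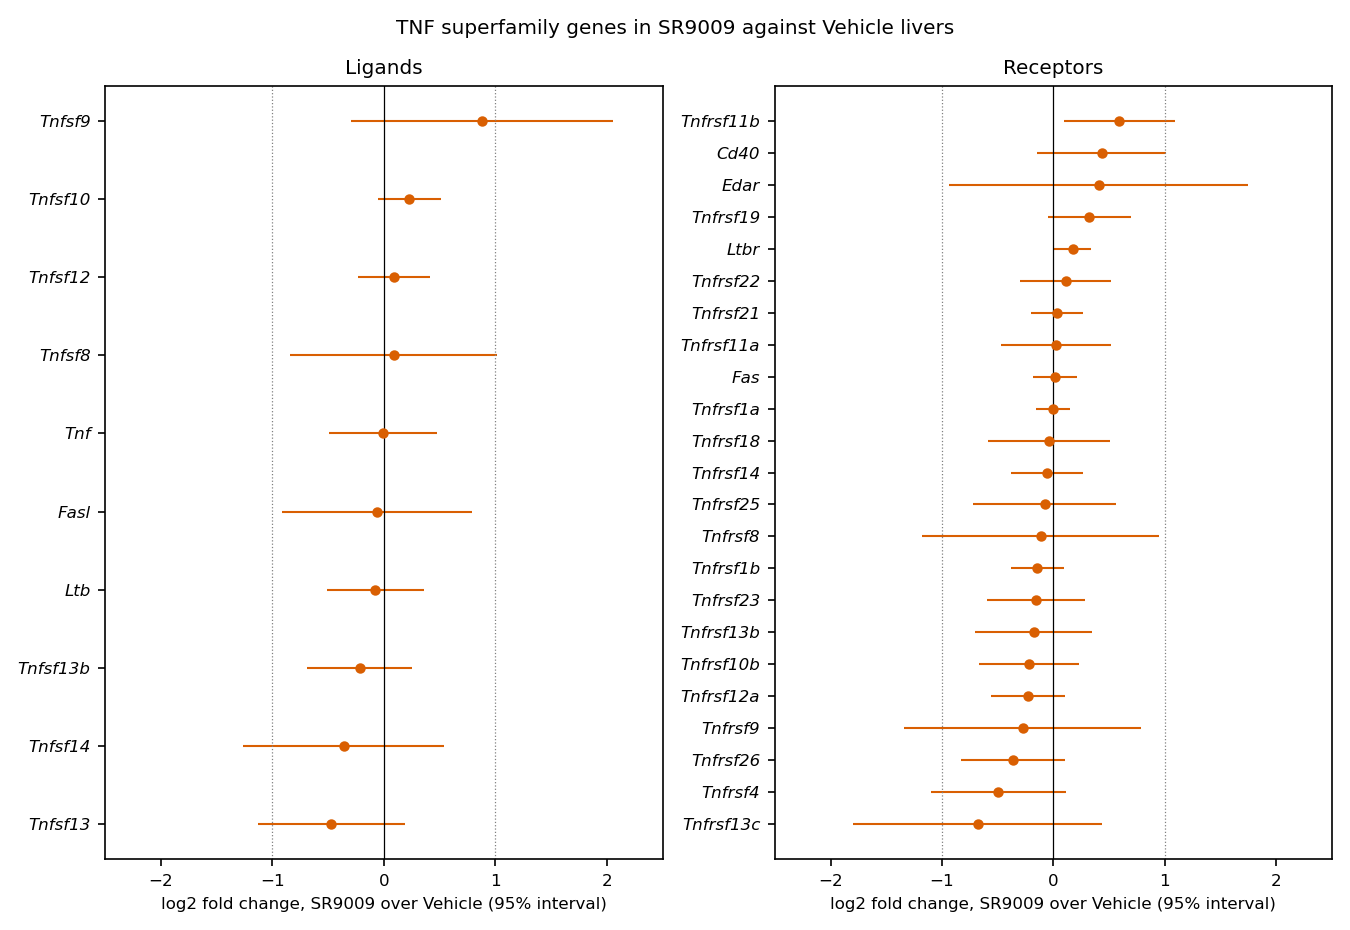
Log2 fold change of SR9009 over Vehicle livers (x axis, with 95% interval) for the tested ligands and receptors; dotted lines mark 2-fold. Points lie on both sides of 0, from -0.68 for Tnfrsf13c to 0.88 for Tnfsf9, and only the intervals of Tnfrsf11b and Ltbr leave out 0.

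SR9009 and Chow livers were compared to see where the family stood in treated mice. These values share the Chow libraries with the Vehicle comparison and are given beside it as a description. In SR9009 livers 26 of 34 members were higher than in Chow livers (76.5%) and 0 lower, where 30.5% of all tested genes were called higher and 25.7% lower, and the median log2 fold change was 1.56. The 26 calls and this median include members tested only through diet-fed libraries. Of the 25 members with a Chow library of 10 or more counts, 18 were higher. The matching share over all such genes was not computed. Tnf was 13.0-fold higher in SR9009 livers (adjusted p = 1.64e-07), Tnfrsf11a 10.1-fold, Tnfrsf10b 7.26-fold, Ltb 6.38-fold, Tnfsf13b 4.80-fold and Tnfrsf12a 4.01-fold.

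Tnfsf10 and Tnfsf9 were called in SR9009 but not in Vehicle livers against Chow. Tnfsf10 averaged 12.2 ± 2.27 CPM in SR9009 (n = 5) and 8.64 ± 1.48 CPM in Chow livers (SD, n = 4), 1.42-fold higher (adjusted p = 0.0071), and Tnfsf9 was 6.23-fold higher (adjusted p = 0.00723). The Tnfsf9 ratio was 19.6 without Chow replicate 3, and the gene was tested and called in 10 of 14 fits that left out a library; without SR9009 replicate 1, 2 or 5 or Vehicle replicate 5 it did not pass the expression filter. Conversely, Tnfrsf13c, Tnfrsf4 and Tnfsf13 were called in Vehicle but not in SR9009 livers, where the adjusted p was 0.274, 0.359 and 0.11. None of these 5 members was called between SR9009 and Vehicle livers directly, with adjusted p from 0.789 to 0.881. Without Chow replicate 3, Tnfsf13 was also called in SR9009 livers (adjusted p = 0.0143), and without Chow replicate 4 so was Tnfrsf14 (adjusted p = 0.0411). The Tnfrsf25 call in SR9009 livers (adjusted p = 0.0381) was lost without SR9009 replicate 1, 2 or 5 or Chow replicate 1, 3 or 4, with adjusted p up to 0.105.

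Adaptors, ubiquitin ligases and kinases carry signals from these receptors. Their shares called in Vehicle against Chow livers were close to those of all tested genes. Of 34 adaptors, ubiquitin ligases and kinases, 9 were higher (26.5%) and 8 lower (23.5%), beside 29.8% and 25.4% of all tested genes, with a median log2 fold change of -0.03. Those that rose most were Traf1, an NF-kB-induced adaptor (log2 2.77 ± 0.31 SE), Tnfaip3, the ubiquitin-editing brake A20 (1.94 ± 0.33), and Map3k14, the kinase NIK of the noncanonical pathway (1.89 ± 0.13). Xiap, an inhibitor of caspases (-0.75 ± 0.12), and Chuk, the kinase IKK alpha (-0.66 ± 0.11), fell most.

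Of 27 tested NF-kB subunits, inhibitors and classic target genes, 23 were higher in Vehicle livers (85.2%) and 1 lower (3.70%), with a median of 1.95. Over all tested genes these shares were 29.8% and 25.4%. Ier3, a stress response gene, averaged 10.1 ± 2.55 CPM in Vehicle (n = 5) and 0.813 ± 0.507 CPM in Chow livers (SD, n = 4), and the neutrophil chemokine Cxcl2 1.54 ± 0.408 CPM against 0.117 ± 0.0967 CPM. Bcl2a1b, a survival gene of the BCL2 family, averaged 1.10 ± 0.239 CPM against 0.00828 ± 0.0166 CPM. Its Chow mean lay below 0.0607 CPM, the lowest level that 3 counts made in any library, so the size of its rise is uncertain. Sod2, the mitochondrial superoxide dismutase, was the member that fell (-0.65 ± 0.09). Il6 was not tested. The macrophage markers given above moved with this list, and their part in it was not tested.

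The list of 10 sheddases and partners includes the inhibitor Timp3. Of its genes, 6 were higher (60%) and 1 lower (10%), beside 29.8% and 25.4% of all tested genes. Adam8, a metalloprotease of myeloid cells, averaged 37.8 ± 4.90 CPM in Vehicle (n = 5) and 0.642 ± 0.182 CPM in Chow livers (SD, n = 4). Timp3, the inhibitor of the TNF-cleaving enzyme ADAM17, rose 3.53-fold, and Rhbdf1, which brings ADAM17 to the membrane, rose 3.40-fold, while Adam9 fell by 0.46 on the log2 scale. Of 20 effectors and regulators of cell death, 11 were higher (55%) and 4 lower (20%), beside the same shares of all tested genes. Pmaip1, encoding NOXA (4.68-fold), Apaf1, the apoptosome scaffold (4.61-fold), and Bcl2, the survival gene (4.22-fold), rose most, and the cytochrome c gene Cycs was among those that fell (log2 -0.58). In SR9009 against Vehicle livers 0 genes of these 4 lists were called in either direction, with medians from -0.11 to -0.02; at an unadjusted p under 0.05 there were 7 of 91 (7.69%), beside 7.28% of all tested genes; these 7 were lower, as were 3.37% of all tested genes.

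**Figure D5:**
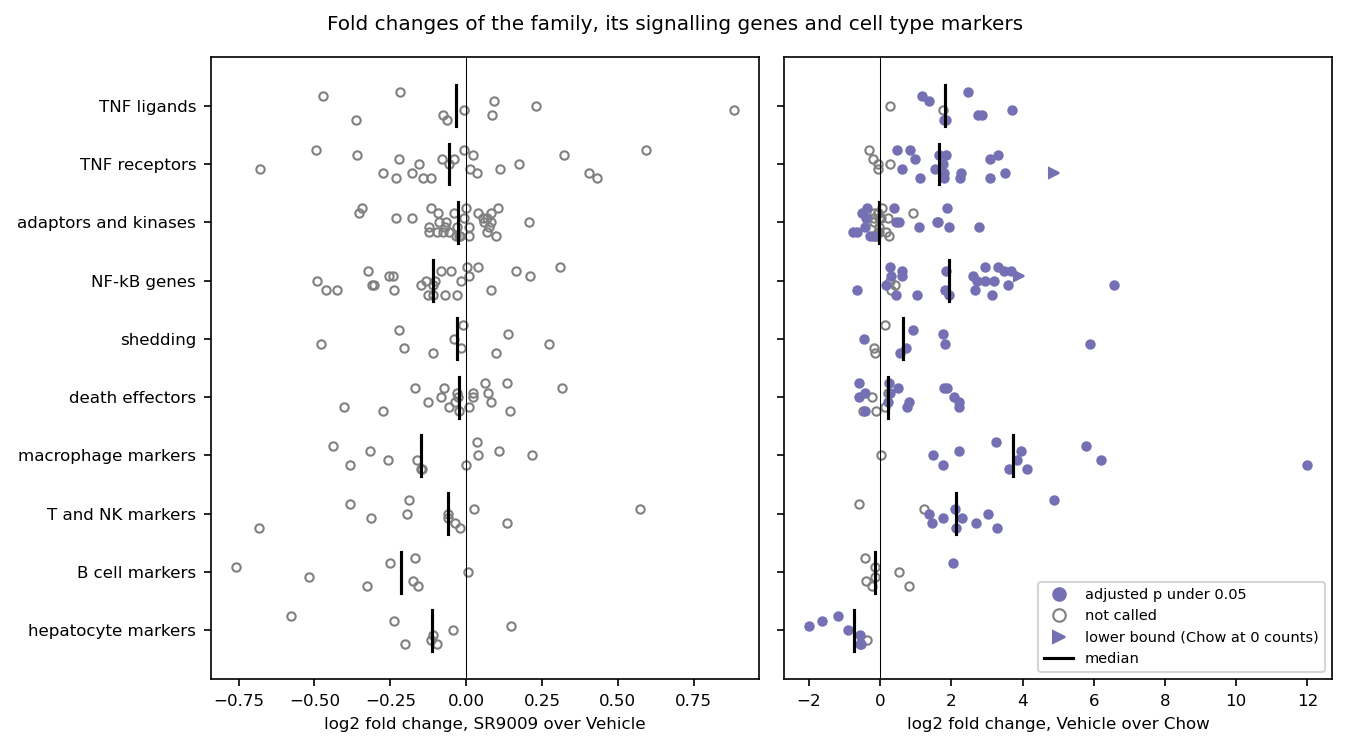
Log2 fold change of each gene (points; filled at adjusted p under 0.05) and its list median (black bar) for SR9009 over Vehicle (left) and Vehicle over Chow livers (right), with a different x scale in each panel; triangles are lower bounds for genes with 0 Chow counts. On the right the ligand and receptor points lie mostly above 0, as do NF-kB genes and macrophage markers, adaptors lie on both sides, and hepatocyte markers lie below; on the left 0 points are filled.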

How the data were processed

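Liver RNA-seq counts were analysed for 14 libraries (SR9009 5, Vehicle 5, Chow 4); 15 samples are described, and Chow replicate 5 was not analysed here. The values deposited by the authors are raw counts for Ensembl genes, with no normalization. The submitters' processing notes name STAR 2.7.11b and the GRCm39 build; the counter, its strand setting and its annotation were not given in the sources used here. Symbols were matched by identifier for 51880 of 57132 genes (90.8%), with 99.6% of counts. Lengths are union exons of GRCm38 annotation.

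Counts were fitted with edgeR 4.0.16 in R 4.3.3: filterByExpr (minimum count 10, minimum total 15; 18181 genes with 99.9% of counts), TMM, robust quasi-likelihood tests on all groups, Benjamini-Hochberg over all tested genes, threshold 0.05, two-sided. The common coefficient of biological variation was 0.211. SE values give the quasi-likelihood F. Counting floors and intervals cover counting error only. Within groups, 26 library pairs differed beyond sampling noise (mean chi-square over genes of 15.9 or more in each pair), so each library is 1 replicate. The labels tell samples apart by title and by a sample number, and these were taken as separate mice. The p-values measure the spread between these samples. The procedure was tested on simulated counts.

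The members and gene lists were chosen with earlier results of these data known. Named members were 14 fixed ones, the 8 largest called rises in Vehicle over Chow and the 5 smallest p in SR9009 over Vehicle; of each pathway list, the 3 largest called rises and 2 largest falls that reached 1 CPM in the group where they were higher. A pathway gene that this rule names is not reported here. Other members are named with their call. Cell type lists were read as counts and sums only: in Vehicle over Chow, stellate cell genes had 9 of 11 higher and 1 lower, dendritic 6 of 8 and neutrophil 6 of 6 tested higher, Kupffer 1 higher and 2 lower of 6, endothelial 4 higher and 1 lower of 9, mesothelial 2 of 6 higher, hepatocyte 7 of 8 lower, red cell 1 of 5 lower, and acinar 1 of 1 tested lower. Alternatives were DESeq2 1.42.0, other size factors and filters, pairs of groups alone, a replicate block, leaving out each library, a term for the receptor gene class, each class alone and raw totals; the last 2 were chosen after seeing the data.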

Additional observations from a re-analysis of the deposited data

Results flagged for a closer look

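In 4 of 101 groups examined, 1 library stood apart from the rest of its group by Dixon's criterion, which chance alone gives in about 1 in 20 groups. Fasl was at 0.648 CPM in Vehicle replicate 4, and between 0.388 and 0.406 CPM in the other Vehicle libraries. Tnfrsf8 was at 0.518 CPM in Vehicle replicate 3, against 0.128 to 0.228 CPM in the others. Tnfrsf14 was at 7.20 CPM in Vehicle replicate 2, below the 9.92 to 10.9 CPM of the other Vehicle libraries. Tnfrsf1b was at 38.1 CPM in Chow replicate 2, above the 28.1 to 29.5 CPM of the other Chow libraries. The calls of Fasl, Tnfrsf1b and Tnfrsf14 in Vehicle over Chow livers were the same without these libraries. Without Vehicle replicate 3, Tnfrsf8 did not pass the expression filter and was not tested.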

How the results depend on the processing

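The 27 members called higher in Vehicle than in Chow livers numbered 24 to 27 when each library was left out and 20 to 32 under the other alternatives: 23 without a count filter, 20 with only the libraries of few receptor genes and 32 on raw totals. In SR9009 over Chow livers the 26 calls became 23 to 26 and 21 to 32, and 0 members were called lower in any of these fits. SR9009 over Vehicle gave 0 calls throughout. Replicate numbers showed no clear pairing of the samples. Deviations correlated over 0.1 in 3 of 13 same-numbered pairs (range -0.36 to 0.20), and 1 library correlated best with its own number. The receptor gene class was not removed from these deviations, so a weaker pairing could have been missed. With the replicate block 25, 0 and 24 members were called higher in Vehicle over Chow, SR9009 over Vehicle and SR9009 over Chow livers, and Tnfrsf4 and Tnfrsf13c in Vehicle over Chow (adjusted p = 0.0665 and 0.0545) and Tnfrsf25 and Tnfsf14 in SR9009 over Chow (0.0723 and 0.0583) were not called. Low counts limit the scarce members, and Tnfrsf8 and Tnfsf9 passed the filter in 10 of 14 fits each that left out a library. With only the 2 groups compared, Tnfrsf8 was not tested against Chow in either diet-fed group, nor were Edar and Tnfsf9 in SR9009 over Chow.

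Signs changed mostly for differences near 0 that were not called. In SR9009 over Vehicle livers the log2 fold change turned to 0.0059 for Tnf and -0.0060 for Tnfrsf11a with the block, and to -0.00995 for Tnfsf8 with the receptor class term. With only the libraries of few receptor genes it turned to 0.0675 for Tnf, 0.20 for Fasl, 0.18 for Tnfrsf12a, -0.94 for Edar, -0.0633 for Tnfrsf11a and -0.62 for Tnfsf8. With only the libraries of many receptor genes it turned to 0.0171 for Tnfrsf1a and -0.0246 for Fas, and on raw totals to -0.0119 for Fas. In Vehicle over Chow livers Ltbr turned to 0.0230 and Tnfrsf11b to 0.0047 with the class term, to 0.0438 and 0.0049 in the libraries of few receptor genes, and to 0.43 and 0.16 on raw totals. Fas turned to 0.42 in Vehicle and 0.41 in SR9009 over Chow livers on raw totals. The causes were not tested.

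Leaving out 1 library moved SR9009 over Vehicle across 0 for Fas (-0.0420 to 0.0650), Fasl (-0.26 to 0.11), Ltb (-0.19 to 0.0129), Tnf (-0.11 to 0.13), Tnfrsf11a (-0.0640 to 0.12), Tnfrsf1a (-0.0314 to 0.0309), Tnfrsf8 (-0.27 to 0.0645), Tnfrsf9 (-0.60 to 0.18) and Tnfsf8 (-0.23 to 0.27), and Fas over Chow in Vehicle (-0.0941 to 0.0168) and SR9009 livers (-0.0967 to 0.0295). Calls gained were Tnfsf10 in Vehicle over Chow (adjusted p = 0.0288) and Tnfrsf11b in SR9009 over Chow (0.0446) with the class term. In the libraries of few receptor genes Tnfrsf11b was called in SR9009 over Chow (0.0468). Without a count filter, Tnfrsf4 (0.07), Tnfrsf13c (0.0822), Tnfrsf22 (0.0536) and Tnfrsf25 (0.0649) in Vehicle over Chow and Tnfrsf25 (0.0946) in SR9009 over Chow were not called; Tnfrsf25 was also not called by DESeq2 in SR9009 over Chow (0.0558).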
